A study of Mus musculus with 34 samples.

Results

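Of the 54532 gene rows of the bulk RNA-seq count table, 4 were listed at 0 in one whole group of mice and met a minimum count in the other group. A row was chosen when its estimated count was 0 in all 4 libraries of one group and 5 or more in at least 3 of the 4 libraries of the other, after symbols beginning with Olfr, H2-, Snor, Scarna, Hist, mt- or Pcdh had been set aside. *Sp6*, *Rpl7a-ps3* and *Gm43173* were at 0 in every SOR mouse, and *Gm13554* was at 0 in every homecage mouse. The 4 genes were thus selected on their counts in homecage against SOR mice, and that difference is given as a description with no test. The 3 genes at 0 in SOR stood among 23174 rows with 5 or more counts in at least 3 homecage libraries, or 0.0129% of them. The 1 gene at 0 in homecage stood among 22741 such rows of the SOR libraries, or 0.0044%. None of the 1780 rows with a symbol set aside met the rule.

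The libraries came from the dorsal hippocampus of adult male C57BL/6J mice. In the SOR group, 4 mice were trained in spatial object recognition, a task in which a mouse learns where objects stand, and were euthanized 1 h after the last trial. In the homecage group, 4 mice stayed in their cages. Each library is 1 mouse, and the labels name the sample as polyA RNA while the study's methods name a stranded total RNA kit with removal of ribosomal RNA.

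The 4 genes are of 4 different annotated kinds. *Sp6* (ENSMUSG00000038560), also called epiprofin, encodes a zinc-finger transcription factor of the SP family, known for its part in the formation of teeth, skin and limb buds rather than in the brain. SP proteins bind GC-rich promoter boxes, and several members, such as *Sp1*, *Sp3* and *Sp4*, are made in neurons. *Rpl7a-ps3* (ENSMUSG00000068579) is a processed pseudogene, a copy of the spliced messenger RNA of *Rpl7a*, which encodes a protein of the large ribosomal subunit. *Gm13554* (ENSMUSG00000087515) is annotated as an antisense RNA, a transcript read from the strand opposite to another gene. *Gm43173* (ENSMUSG00000107194) belongs to the annotation class TEC, used for transcripts that still await experimental evidence.

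*Sp6*, *Gm13554* and *Gm43173* lie on top of another gene that is read from the opposite strand, and *Rpl7a-ps3* is a near-copy of a highly transcribed gene. The sequences below, from the GENCODE M21 transcripts on GRCm38, show the shared bases as they stand in each gene. The first pair is the start of the *Sp6* coding sequence on the plus strand (chr11:97021463-97021552) and the same bases in *Gm11532* on the minus strand. Capitals mark the start codon and its complement.
Sp6: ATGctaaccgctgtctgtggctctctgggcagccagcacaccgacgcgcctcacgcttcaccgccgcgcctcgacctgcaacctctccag
Gm11532: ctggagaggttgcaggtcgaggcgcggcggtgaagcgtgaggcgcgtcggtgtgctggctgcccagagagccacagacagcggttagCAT
The second pair is the end of the coding sequence of *Nacc2*, on the minus strand (chr2:26059962-26060051), and the same bases in the second exon of *Gm13554* on the plus strand. Capitals mark the stop codon and its complement.
Nacc2: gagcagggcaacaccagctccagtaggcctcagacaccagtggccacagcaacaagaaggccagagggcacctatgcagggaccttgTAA
Gm13554: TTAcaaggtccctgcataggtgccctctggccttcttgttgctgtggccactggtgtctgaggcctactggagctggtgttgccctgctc
The next stretch is of *Gm43173*, on the minus strand (chr5:93093071-93093160), where it runs into the exon of *Gm43172* on the plus strand. Capitals mark the 60 bases that lie in both genes.
Gm43173: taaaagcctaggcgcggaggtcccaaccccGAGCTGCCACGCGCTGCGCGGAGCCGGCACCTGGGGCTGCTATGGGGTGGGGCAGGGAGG
The last pair is the first 120 bases of *Rpl7a-ps3*, on the minus strand (chr15:36308825-36308944), and the start of the spliced *Rpl7a* coding sequence, on the plus strand (chr2:26910828-26911122, introns left out). Capitals mark the 1 base at which they differ in this window.
Rpl7a-ps3: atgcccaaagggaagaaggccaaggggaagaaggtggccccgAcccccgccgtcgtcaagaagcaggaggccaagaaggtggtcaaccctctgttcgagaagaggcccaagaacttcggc
Rpl7a: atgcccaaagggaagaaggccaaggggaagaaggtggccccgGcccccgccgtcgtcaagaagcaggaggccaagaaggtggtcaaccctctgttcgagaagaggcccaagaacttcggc

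The total estimated count per library ran from 51406011 to 81525977, the lowest in SOR mouse 4 and the highest in homecage mouse 4, so that 3 counts in 1 library correspond to between 0.0377 and 0.0589 CPM, the count scaled by the size of the library. The immediate early genes, which neurons switch on within minutes of activity, checked the labels: 8 of 8 rose in SOR mice, *Arc* with a log2 fold change of 1.42 ± 0.0646 (SE, adjusted p = 8.27e-06, edgeR quasi-likelihood test, 4 against 4 mice). Markers of principal neurons of the hippocampus summed to between 504 and 563 CPM in homecage and between 501 and 548 CPM in SOR libraries. Of these markers 0 of 7 passed the test, where 0.309% of all genes tested did. The summed choroid plexus markers varied far more, from 24.4 to 1088 CPM in homecage and from 40.4 to 3979 CPM in SOR libraries, and 0 of 5 passed, the median of their log2 fold changes being 1.32. Their part in the counts of the 4 genes was not tested. Epithelial and skin markers, the cells in which *Sp6* is best known, summed to between 1.89 and 2.97 CPM in homecage and between 2.28 and 3.30 CPM in SOR libraries, and 0 of the 3 tested passed.

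*Sp6* had 27.5, 35.3, 43.0 and 56.1 estimated counts in homecage mice 1 to 4 and 0 in each SOR mouse. It was the only one of the 4 genes counted in every library of its group, and the only gene that the rule would keep with all 4 libraries required. On the CPM scale its homecage level was 0.617 ± 0.140 (SD, n = 4). With 3 counts taken as a floor for a library at 0, the homecage mean was 12.4 times that floor in the SOR libraries. This ratio covers counting error in the libraries at 0 only. It leaves out the spread of the counted libraries and any reads divided between overlapping genes. In whole tissue, fewer cells with a transcript and less of it per cell cannot be told apart.

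*Rpl7a-ps3* had 22.2, 32.2, 0 and 21.3 estimated counts in homecage mice 1 to 4 and 0 in each SOR mouse. Its homecage level was 0.281 ± 0.203 CPM (SD, n = 4), and this mean was 5.63 times the same floor. Homecage mouse 3 was at 0 like the SOR mice, so that the groups met at 0.

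*Gm43173* had 11.7, 8.20, 0 and 11.9 estimated counts in homecage mice 1 to 4 and 0 in each SOR mouse. Homecage mouse 3 was again at 0, and the other 3 values were the lowest of any member at 0 in SOR. The homecage level was 0.119 ± 0.0889 CPM (SD, n = 4), and this mean was 2.39 times the floor in the SOR libraries.

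*Gm13554* had 0 counts in each homecage mouse and 7.67, 0, 48.6 and 38.7 in SOR mice 1 to 4. SOR mice 3 and 4 held most of its counts and SOR mouse 2 had none, so the SD of the SOR level was larger than its mean, at 0.402 ± 0.407 CPM (n = 4). This mean was 8.57 times the floor in the homecage libraries, a ratio that leaves out the spread of the SOR mice.

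**Figure D1:**
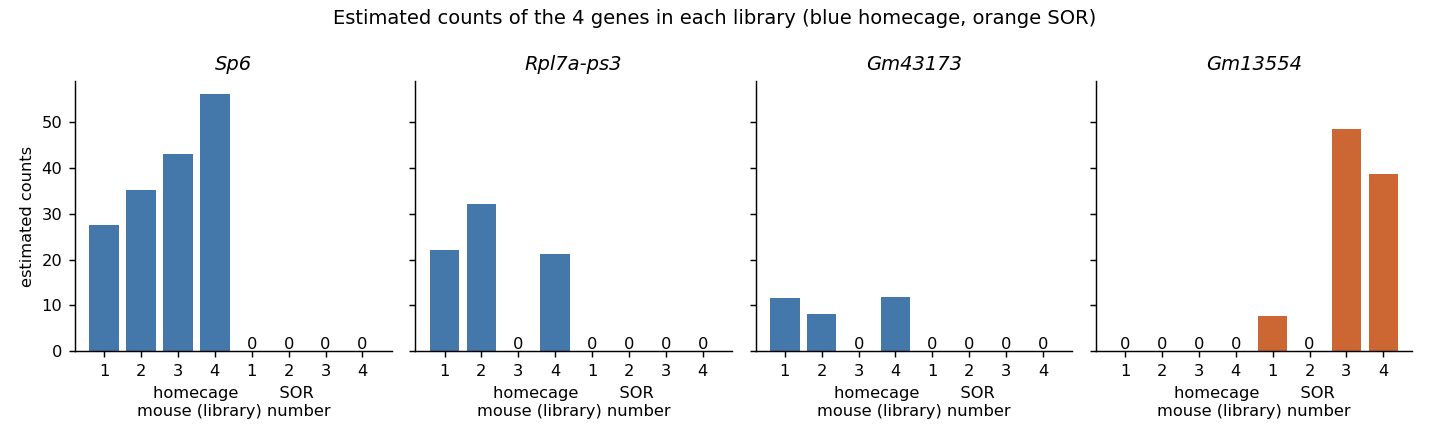
Estimated counts (vertical axis) of *Sp6*, *Rpl7a-ps3*, *Gm43173* and *Gm13554* in each of the 8 libraries, with homecage in blue and SOR in orange and a 0 written where the count was 0. *Sp6* alone is above 0 in all 4 libraries of its group, from 27.5 to 56.1 counts.

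The test across all genes had little hold on these rows. The filter on low counts kept *Sp6* and left out the other 3, so 1 of the 4 genes was tested here. The study shows *Rpl7a-ps3* among the top genes of its own bulk analysis, from a fit that was not repeated here. It reports that gene as not detected in its pooled spatial data. *Sp6* had an adjusted p of 0.00326 (edgeR quasi-likelihood test, 22018 genes), and nothing is read from this since the same contrast chose the gene. Of all genes tested, 0.309% passed in either direction, 0.0363% lower and 0.273% higher in SOR mice. With a fold above 1.4 required as well, 0.0227% were lower and 0.15% higher. Every SOR value of *Sp6* was below every homecage value, which the rule fixes for a gene counted in all homecage libraries. Of the genes tested, 3.96% showed such a separation, and nothing is read from it for *Sp6*. Its fitted log2 fold change of -8.30 depends on a prior count and is not a bound. With the replicate number as a block the adjusted p was 0.0661, and DESeq2 gave the gene no adjusted p.

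The locus of *Sp6* lies on chromosome 11 from 97013394 to 97024734 on the plus strand, with 3 exons of 3841 bases in all. *Gm11532* (ENSMUSG00000087067), a processed transcript of 2 exons, runs from 97020508 to 97026248 on the minus strand. Its first exon, in the order of transcription, covers the whole last exon of *Sp6*, so that 3329 bases, or 86.7% of the *Sp6* exon sequence, belong to both genes, including all 1128 coding bases. The first 2 exons of *Sp6*, which hold no coding sequence, lie outside *Gm11532*. Of the distinct words of 31 bases in the *Sp6* transcripts, 86.6% recurred in *Gm11532* when both strands were allowed and 0% in any other gene of the same strand. The kit keeps strand, but whether the counting used it is not given in the sources used here, so it is not known whether reads of *Sp6* and of *Gm11532* were told apart over those bases.

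*Gm11532* had 5.78, 21.5, 17.0 and 22.7 estimated counts in homecage mice 1 to 4 and 28.8, 46.9, 50.7 and 48.1 in SOR mice 1 to 4. Every SOR value was above every homecage value, in counts as in CPM, a pattern that 2.99% of the genes tested showed on the CPM scale. Its mean was 0.249 ± 0.0962 CPM in the homecage group and 0.739 ± 0.244 CPM in the SOR group (SD, n = 4 each), a log2 fold change of 1.54 ± 0.358 (SE). This missed the threshold, with an adjusted p of 0.143 from edgeR's quasi-likelihood test. Its counts were not used by the rule, but whether they are independent of those of *Sp6* is not known.

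As a description that does not depend on how reads were divided between the strands, both genes were summed. *Sp6* and *Gm11532* together had 33.3, 56.8, 60 and 78.9 counts in homecage mice 1 to 4 and 28.8, 46.9, 50.7 and 48.1 in SOR mice 1 to 4. The sum averaged 0.866 ± 0.208 CPM over homecage and 0.739 ± 0.244 CPM over SOR libraries (SD, n = 4 each), and the ranges of the groups overlapped, from 0.605 to 1.07 CPM against 0.388 to 0.944 CPM. The difference between the means of the sum was smaller than either SD. *Sp6* took 82.6%, 62.1%, 71.7% and 71.2% of the sum in homecage mice 1 to 4 and 0% in every SOR mouse, which the rule fixes. Whether the SOR mice read the locus from the other strand or the counts were divided otherwise was not tested.

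**Figure D2:**
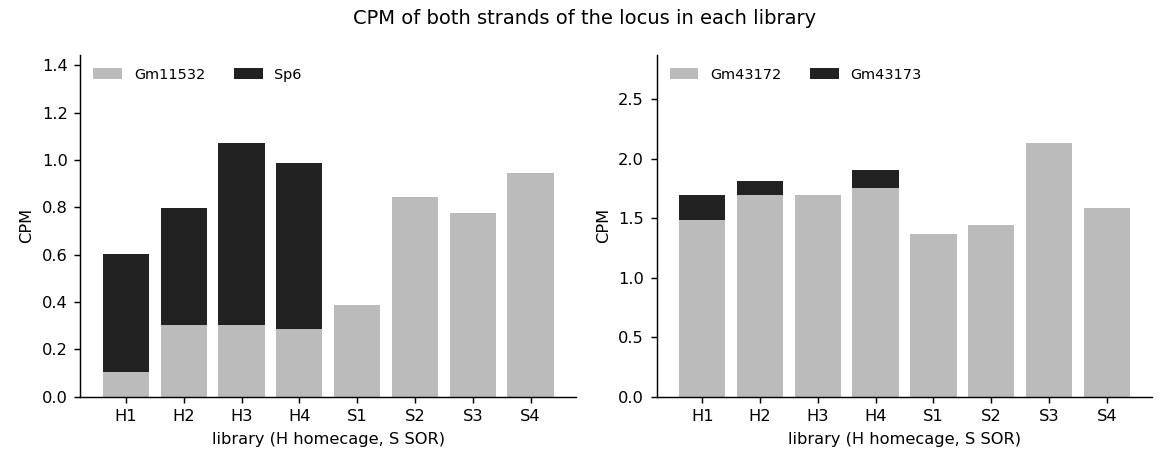
CPM (vertical axis) in each library for *Sp6* stacked on *Gm11532* (left) and *Gm43173* stacked on *Gm43172* (right), homecage H1 to H4 and SOR S1 to S4. The whole bars overlap between the groups at both loci, from 0.605 to 1.07 against 0.388 to 0.944 CPM on the left.

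*Gm43173*, on chromosome 5 from 93092759 to 93093351 on the minus strand, has a single exon of 593 bases. Its downstream 372 bases, 62.7% of the exon, lie in the exon of *Gm43172* (ENSMUSG00000107374), another TEC gene, on the plus strand from 93090994 to 93093130. *Gm43172* had 81.97, 121, 95.2 and 140 counts in homecage mice 1 to 4 and 102, 80.1, 139 and 80.7 in SOR mice 1 to 4. The groups overlapped, with a log2 fold change of -0.02 ± 0.163 (SE, adjusted p = 0.98, edgeR quasi-likelihood test). *Gm43173* made up 12.4%, 6.35%, 0% and 7.85% of the sum of both genes in the homecage mice. This sum averaged 1.78 ± 0.101 CPM over homecage and 1.63 ± 0.346 CPM over SOR libraries (SD, n = 4 each), again with overlapping groups.

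*Gm13554*, on chromosome 2 from 26059010 to 26060275 on the plus strand, has 2 exons of 477 bases in all. All of them lie in the last exon of *Nacc2* (ENSMUSG00000026932), on the minus strand from 26055535 to 26123220, and 311 of them are coding bases of *Nacc2*. *Nacc2* encodes a nuclear BTB domain protein that represses transcription. It had 3873, 5203, 4305 and 6048 counts in homecage mice 1 to 4 and 6242, 3881, 4611 and 4259 in SOR mice 1 to 4. The log2 fold change was 0.06 ± 0.067 (SE, adjusted p = 0.83, edgeR quasi-likelihood test), and the groups overlapped. *Gm13554* made up 0.123%, 0%, 1.04% and 0.901% of the sum of both genes in SOR mice 1 to 4. Its counts were thus small beside those of the gene it lies in, and in SOR mice 3 and 4, which had most of them, *Nacc2* was at 70.8 and 83.7 CPM within an SOR range of 69.9 to 83.9 CPM.

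**Figure D3:**
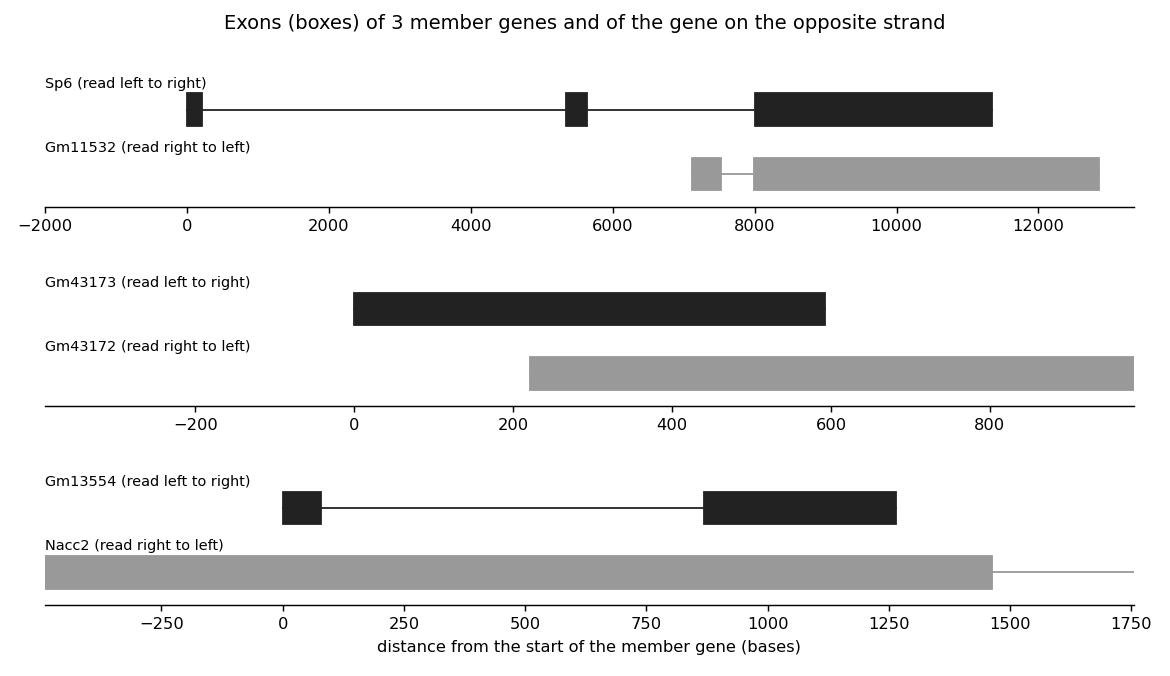
Exons (boxes) of *Sp6*, *Gm43173* and *Gm13554* in black and of the gene on the opposite strand in grey, by distance in bases from the start of the first gene, with lines for introns. The overlaps are 3329, 372 and 477 bases, and the grey genes of the middle and lower maps run on beyond the frame.

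*Rpl7a-ps3* lies alone on chromosome 15 from 36308149 to 36308944 on the minus strand, with no exon of another gene over it. Aligned to the spliced *Rpl7a* transcript, its 796 bases matched at 784 positions, an identity of 98.5%, with 12 mismatches and no gap. The longest run without a mismatch was 191 bases, longer than a read of 150 bases. Of its 647 windows of 150 bases, 46.8% stood whole in the transcript of another gene on the same strand, spread over 20 genes. At the level of 31-base words the share was 88.9%, spread over 161 genes of the same strand. The pseudogene *Rpl7a-ps5* held 498 of 766 words, *Gm17828* 497, and *Gm8226* and *Rpl7a* itself 484 each. A read from such a stretch can be assigned to several genes, so the counts of *Rpl7a-ps3* are uncertain.

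The parent gene had between 8776 and 13948 counts per library, too many for its level to show a shift of the few counts of *Rpl7a-ps3*. *Rpl7a* ran from 170 to 181 CPM in homecage and from 164 to 172 CPM in SOR mice, with a log2 fold change of -0.06 ± 0.0362 (SE, adjusted p = 0.608, edgeR quasi-likelihood test). The table holds 13 *Rpl7a* pseudogenes, of which 8 had a count in at least 1 library and 3 in all 8. *Rpl7a-ps5*, the most counted, had between 0.923 and 1.43 CPM in homecage and between 0.756 and 1.95 CPM in SOR mice (log2 fold change 0.11 ± 0.278, adjusted p = 0.931). *Rpl7a-ps9* had between 0.194 and 0.364 CPM in homecage and between 0.125 and 0.255 CPM in SOR mice (log2 fold change -0.83 ± 0.326, adjusted p = 0.433). Another pseudogene, *Rpl7a-ps7*, was at 0 in homecage mouse 2 and had between 6.09 and 11.8 counts in the other 7 libraries, so a lone 0 among counted libraries occurred within this family too. Summed over the 13 pseudogenes, the level averaged 1.92 ± 0.312 CPM over homecage and 1.60 ± 0.485 CPM over SOR libraries (SD, n = 4 each). This sum includes *Rpl7a-ps3* itself, which averaged 0.281 CPM over homecage libraries and was at 0 in SOR mice by the rule. Nothing is therefore read from the difference. Genes under other symbols that share these words, such as *Gm17828* and *Gm8226*, are not in this sum.

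The rest of the SP family was counted in every library of both groups. Per kilobase of exon, *Sp3* was the most abundant with 18.0 ± 0.291 CPM per kb in homecage mice (SD, n = 4), ahead of *Sp4* with 8.93 ± 0.270 and *Sp1* with 4.65 ± 0.289. *Sp2* followed with 0.877 ± 0.0250 CPM per kb. *Sp9*, *Sp8* and *Sp7*, with means of 0.479, 0.460 and 0.341 CPM per kb, overlapped from library to library. *Sp6* came next at 0.161 ± 0.0365 CPM per kb, and *Sp5* was lowest with 0.0283 ± 0.00755. The order of these levels thus placed *Sp6* near the foot of its family in the homecage hippocampus, among members known from development. Between the groups, 0 of the other 7 members tested passed the threshold, where 0.309% of all genes tested passed. So small a share makes 0 of 7 unremarkable, and *Sp6* itself was chosen on this contrast. *Sp2* was lower in every SOR than in every homecage mouse, from 0.660 to 0.833 against 0.855 to 0.913 CPM per kb, with a log2 fold change of -0.19 ± 0.112 (SE, adjusted p = 0.628, edgeR quasi-likelihood test). The smallest adjusted p of these members was that of *Sp9*, which acts in forebrain interneurons, 0.367, beside a log2 fold change of -0.59 ± 0.208 (SE, edgeR quasi-likelihood test). *Sp1*, *Sp3* and *Sp4* had log2 fold changes of -0.07, 0.08 and -0.13, and those of *Sp7* and *Sp8* were 0.32 and -0.25. *Sp5* did not pass the filter on low counts.

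**Figure D4:**
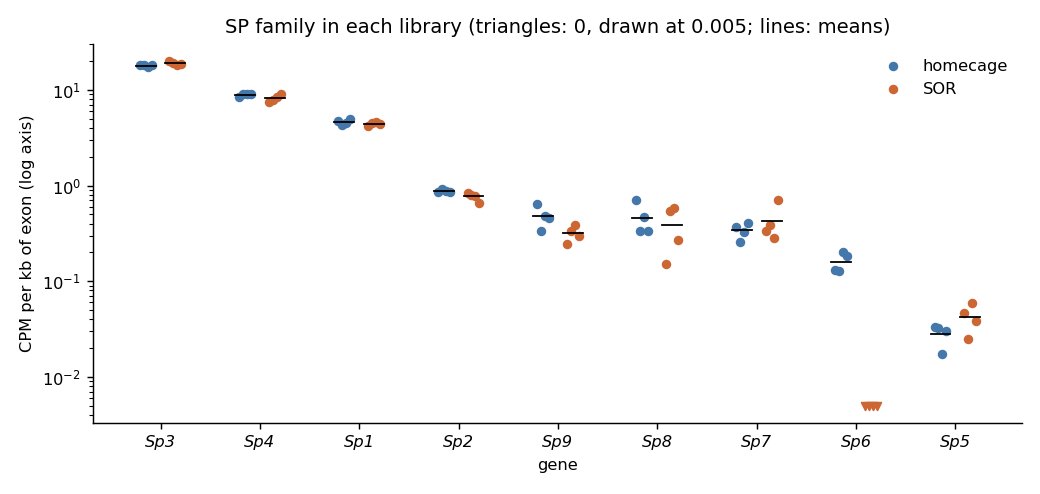
CPM per kb of exon on a log axis for the 9 SP genes in each homecage (blue) and SOR (orange) library, with a black line at each group's mean and triangles for libraries at 0. *Sp6* has 0.129 to 0.200 CPM per kb in homecage mice and is at 0 in SOR mice, while the groups of the other genes overlap, except those of *Sp2*.

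The rule's thresholds lay close to the data. The third highest count was 8.20 in *Gm43173* and 7.67 in *Gm13554*, just above the minimum of 5, and 21.3 in *Rpl7a-ps3*. Just outside, 12 rows were at 0 in SOR with 5 or more counts in exactly 2 homecage libraries, and 9 rows had the reverse pattern. The closest of the first kind was *Bcl2a1d*, a member of the anti-apoptotic A1 gene cluster, with 2.85, 8.16, 3.04 and 8.30 counts in homecage mice. *Gm13522* and *Gm13597* followed, with 1.96 and 0 as the third highest count. The closest of the second kind was the pseudogene *Gm15163*, with 7.39, 3.03, 8.55 and 4.41 counts in SOR mice, ahead of *4930583K01Rik* and *Ap3s1-ps2*, where the third highest count was 2.90 and 1.10.

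Other rows missed the rule because of a few counts in the lower group. *Gm49540* had between 5.35 and 8.72 counts in homecage mice and 3.27 in 1 SOR mouse, the others being at 0. *Hcar2*, a receptor for hydroxycarboxylic acids, had between 5.14 and 6.98 counts in homecage and between 0 and 2.05 in SOR mice. *Gltpd2* had between 5.12 and 6.70 counts against 0 to 2.53. In the other direction, *Vdac3-ps1* had between 5.78 and 13.8 counts in SOR mice and 1.58 in 1 homecage mouse. *Gm45494* had between 5.14 and 6.95 counts in SOR against 1.89 to 2.05 in homecage mice, and *Gm26656* between 7.04 and 13.3 against 0 to 4.92. None of these rows held more than 15 counts in any library, while *Sp6* held more than 27 in each homecage library.

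A count of 0 beside counts of 5 or more in at least 3 libraries was seen without regard to group as well. Among such rows, 495 were at 0 in 1 library, 153 in 2, 90 in 3, 38 in 4 and 20 in 5, against 23686 at 0 in none. Of the 38 rows at 0 in 4 libraries, 1 had the zeros in one whole group, and that row was *Sp6*. Of the 20 rows at 0 in 5 libraries, 3 did, and these were the other 3 genes. Of the 38 rows, 18 were pseudogenes and 10 were protein-coding. Of the 23686 rows at 0 in none, 1630 were pseudogenes and 15982 were protein-coding. Each library had between 1 and 15 rows at 0 that held 5 or more counts in all 7 others, with the most in SOR mouse 4, the library of the lowest total.

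What the 4 genes shared, and the rule did not use, was sequence in common with another gene. At least 50% of the 31-base words of each recurred in another gene when both strands were allowed, with 86.6% for *Sp6*, 88.9% for *Rpl7a-ps3*, 60.7% for *Gm43173* and 93.3% for *Gm13554*. Among 23520 rows with 5 or more counts in at least 3 libraries of either group, 7.90% reached 50%, and the median row shared 2.01%. With the strand kept, the share of *Rpl7a-ps3* stayed at 88.9% and that of the other 3 was 0%, where 6.08% of the rows reached 50%. In a second measure, 28.3% of 23606 such rows had an exon under a gene of the opposite strand, as did 3 of the 4 genes.

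The same property followed the number of zeros across the table. Over the rows with enough sampled words to compare, the share with at least 50% of them in another gene was 7.29% among rows at 0 in no library, 27.8% at 1, 46.4% at 2, 66.7% at 3, 91.9% of 37 rows at 4 and 100% of 19 rows at 5. The 4 genes belong to the last 2 classes, in which nearly every row shared most of its sequence. Genes are not independent replicates, and the shares are given as a description with no test.

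**Figure D5:**
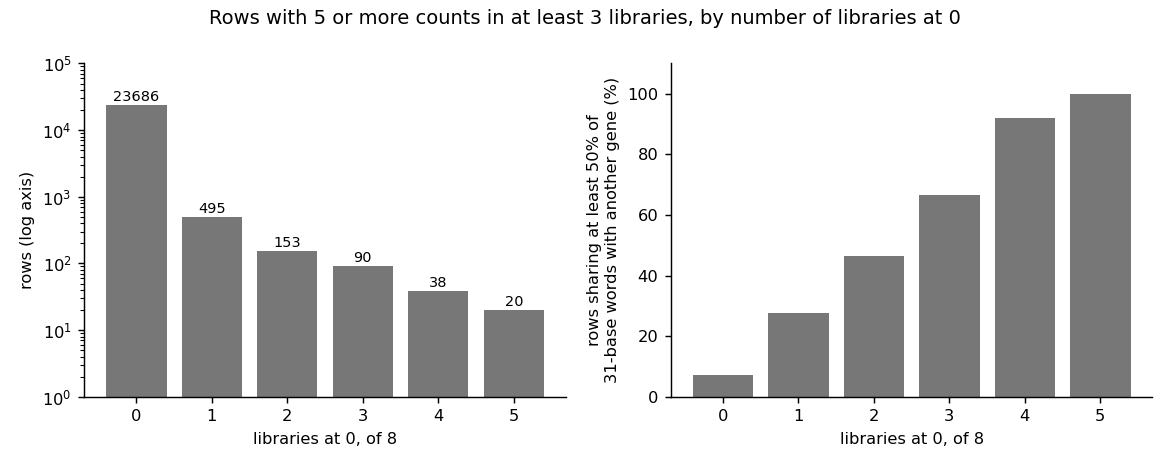
Left, number of rows with 5 or more counts in at least 3 libraries (log axis) by how many of the 8 libraries were at 0, from 23686 rows at 0 in none to 20 at 0 in 5. Right, percentage of those rows that shared at least 50% of their 31-base words with another gene on either strand, which ran from 7.29% to 100%.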

How the data were processed

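The authors deposited estimated counts per gene, summarised with tximport without normalization and with 52.6% of values not whole. The methods name STAR and featureCounts in bcbio-nextgen, which count whole reads, so the quantifier behind these estimated counts and its strand setting are not given in the sources used here; the labels name build mm10. Spatial and single-nucleus data were not analysed here. Gene types, exons and transcripts came from GENCODE M21 (GRCm38), which matched 54495 of 54532 identifiers and is not stated to be the authors' annotation. The genes, lists and tests were chosen with earlier results of these data known. Counts were rounded, filtered with filterByExpr, scaled by upper quartile and tested with edgeR 4.0.16 (quasi-likelihood, R 4.3.3) over all genes with Benjamini-Hochberg adjustment. A check on simulated data changed only genes with a mean above 1 CPM, so it did not reach the levels of the members or of *Gm11532*. DESeq2 1.42.0 was an alternative. CPM used the unrounded counts and scaled totals. Partners are genes with an exon over a member's exon by at least 1 base. Words of 31 bases were compared over all transcripts, and their background share used a fixed sample of 1 word in 16 for rows with at least 10 sampled words. Alignment used Biopython 1.88. Named genes were all members, their partners, the *Rpl7a* and SP families, marker lists and up to 3 rows per direction nearest each threshold. Nothing says more of the replicates than 1 label each, so spread and p-values measure these libraries. Ratios to the floor cover counting error in the libraries at 0 only. *Rpl7a-ps1*, *Rpl7a-ps2* and similar pseudogenes with few counts are given by number only. Other marker lists (oligodendrocyte, astrocyte, microglia, endothelial, red blood cell, thalamus, skeletal muscle) had 0 genes past the threshold, where 0.309% of all genes tested passed. This does not show equal cell content. *Opalin*, *Cldn5* and *Acta1* (log2 fold changes -0.496, -0.303 and -0.468) were lower in every SOR than in every homecage mouse, as were 3.96% of the genes tested. The other genes of these lists overlapped between the groups. The study reports *Opalin* as lower in its bulk data, where its adjusted p here was 0.164 (edgeR quasi-likelihood test). The study's edgeR fit also held factors for latent sources of variation (RUVs). Those factors, whose number the methods do not give, were left out here. At the same thresholds for fold and adjusted p the study called more genes in each direction.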

Additional observations from a re-analysis of the deposited data

Results flagged for a closer look

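The named genes and sums were checked for a mouse far from the other 3 of its group. Of the 62 groups of 4 with any spread, 5 had one. About 1 group in 20 would be set apart if the groups were independent and their values normally distributed, which does not hold here. The sums repeat the counts of their parts, and some groups were mostly at 0. *Gm11532* was at 0.105 CPM in homecage mouse 1 and between 0.285 and 0.303 CPM in the other homecage mice. The pseudogene *Rpl7a-ps9* was at 0.194 CPM in the same mouse and between 0.340 and 0.364 CPM in the others. Homecage mouse 1 also had the highest share of *Sp6* in the counts of both strands, at 82.6%. The other 3 groups belong to rows just outside the rule, picked for few counts in the lower group. A single value above 0 beside 3 values at 0 always meets this check. That fixed in advance the flags of *Gm49540* in SOR mice and of *Vdac3-ps1* in homecage mice. *Gm49540* was at 0.0502 CPM in SOR mouse 3 and at 0 in the other SOR mice. *Vdac3-ps1* was at 0.0282 CPM in homecage mouse 3 and at 0 in the other homecage mice, and at 0.271 CPM in SOR mouse 4 against 0.0887 to 0.117 CPM in the other SOR mice.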

How the results depend on the processing

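The rule's counts depended on its cut-offs. At 0 in SOR stood 15 rows with at least 2 libraries required and 1 row (*Sp6*) with all 4, against 3, and at 0 in homecage 10 and 0 rows, against 1; a minimum of 3 or 10 counts gave 4 and 0 rows at 0 in homecage, and scaling to the median total gave 2. Leaving out 1 library in turn gave between 1 and 6 rows at 0 in SOR and between 0 and 6 at 0 in homecage. Without homecage mouse 1, 2 or 4 *Sp6* was the only row at 0 in SOR (1). Without SOR mouse 1, 3 or 4 *Gm13554* dropped out (0). The minimum of 3 libraries was kept, and *Rpl7a-ps3*, *Gm43173* and *Gm13554* were counted in exactly 3, so these losses were fixed in advance. *Sp6* met the rule under all of these alternatives, which its counts in all 4 homecage libraries fixed for each library left out. Over all genes, 33 were called higher and 5 lower at a fold above 1.4; DESeq2 called 82 and 32, the likelihood ratio test 69 and 36, no filter 8 lower, and leaving out a library 20 to 34 higher and 2 to 5 lower. Same-number correlations of deviations ran from -0.0837 to 0.073, within the range of other pairs, from -0.2 to 0.194. They gave no sign of pairing by replicate number, but so few values cannot show that there was none. With the replicate block 27 genes were called higher and 3 lower. Of the 4 genes 0 passed, since *Sp6* (log2 fold change -8.29) had an adjusted p of 0.0661 (edgeR quasi-likelihood test). Across the libraries left out, 1 to 2 of the 4 genes passed; the second was *Rpl7a-ps3* without homecage mouse 3, the homecage library in which it was at 0, where 41 of 22656 genes passed in all, and nothing is read from this. Of the partner genes 1 passed with the likelihood ratio test, *Gm11532* (log2 fold change 1.54, adjusted p = 0.00837), where 214 of 22018 genes passed in all. With any library left out 0 partner genes passed, where between 30 and 55 genes passed in all. *Gm43172* changed sign without homecage mouse 4 (0.0032), SOR mouse 1 (0.0539) or SOR mouse 2 (0.0317), with a range from -0.181 to 0.0539. The causes were not tested.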
